A study of Mus musculus with 4 samples.

Results

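The genes encoding the proteins of the cytosolic ribosome were described in mouse CD4+ T cells cultured under conditions that induce regulatory T cells (Treg cells). They were taken from the deposited gene table by symbol (Rpl or Rps with a number and at most 1 further letter or an l suffix, Rplp with a digit, or Rpsa), which matched 85 of 34745 rows. Of these, 52 encode proteins or paralogs of the large 60S subunit and 32 of the small 40S subunit. The remaining match, Rps6kl1, encodes a kinase-like protein and no part of the ribosome, and is given only as counts below.

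The libraries labelled Setd2-CD4 cre (numbers 22 and 24) and wild type (numbers 13 and 15) came from naive splenic CD4+ T cells of C57BL/6 mice, all collected after 3 days of Treg-polarizing culture. Setd2 encodes the methyltransferase that places the trimethyl mark on lysine 36 of histone H3, and a Cd4-driven Cre acts in T cells from the CD4+CD8+ thymocyte stage onward, so any deletion precedes the culture. The labels give neither the exons removed nor the age, sex or source animal of a library, so p-values here reflect only how far these libraries differ among themselves, possibly for technical reasons. The groups are named here as labelled.

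Each cytosolic ribosome pairs a small subunit, which reads the messenger RNA, with a large subunit, which joins the amino acids. Its proteins are needed in near-equal numbers, and in mammals most of their messenger RNAs start with a terminal oligopyrimidine (TOP) tract, through which the growth-regulating kinase complex mTORC1 and the RNA-binding protein LARP1 set their translation. T cells leaving quiescence greatly expand ribosome production, and several ribosomal proteins also have roles outside the ribosome, such as the binding of the p53 regulator Mdm2 by Rpl5 and Rpl11.

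The libraries held between 14599957 and 16030869 counts. Setd2, the gene named in the genotype, was at 137 and 113 CPM (edgeR's depth-scaled counts) in Setd2-CD4 cre libraries 22 and 24, against 137 and 146 CPM in wild type libraries 13 and 15 (log2 fold change -0.17, SE 0.14, adjusted p = 0.436). The groups overlapped, and a count over the whole gene includes exons outside any deleted segment, so it does not check the deletion. The T cell markers were present in every library, with a summed level of 2989 and 3127 CPM in Setd2-CD4 cre and 3360 and 3223 CPM in wild type. Of the 4 γδ T cell markers, 3 were past the threshold and higher in Setd2-CD4 cre, with the list summing to 29.7 and 41.8 CPM there and to 12.9 and 12.5 CPM in wild type. Of the 6 B cell markers, 1 (Igkc) was past the threshold and higher, with the list summing to 272 and 337 CPM in Setd2-CD4 cre and to 227 and 230.3 CPM in wild type. No γδ T cell or B cell marker was at 0 in any library. Of the 3 NK cell markers tested, Klre1 was past the threshold and higher (log2 fold change 1.59, adjusted p = 0.044) and Eomes past it and lower (-1.32, adjusted p = 0.0205), and the list summed to 17.3 and 13.3 CPM in Setd2-CD4 cre and to 25.5 and 24.9 CPM in wild type. Both calls were lost without either wild type library. Neither CD8 T cell marker was past the threshold, but library 24 was the lowest in both, with Cd8a at 113 and 41.2 CPM in Setd2-CD4 cre 22 and 24 and at 81.0 and 120.3 CPM in wild type. These lists moved in the same contrast as the ribosomal protein genes, and their part in the results was not tested; in bulk RNA, fewer cells of a type and less RNA per cell cannot be told apart.

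In edgeR's quasi-likelihood test of 13279 genes, 10.1% were past an adjusted p of 0.05 in either direction, 5.53% higher and 4.59% lower in Setd2-CD4 cre. Among the ribosomal protein genes, 82 had enough counts to be tested (50 large and 32 small). Past the threshold, 2 were higher and 0 were lower, which is 2.44% of those tested. Both, Rpl24 and Rpl36, encode large-subunit proteins. At an unadjusted p below 0.05 there were 14 large-subunit genes (28%) and 6 small-subunit genes (18.8%), against 31.6% of all genes, so at neither threshold was the share of ribosomal protein genes above the background. Those not tested were Rpl10l, with 0 counts in every library, Rpl3l, with 1 count in wild type 15 alone, and Rps6kl1, with 9 and 8 counts in Setd2-CD4 cre and 9 and 7 in wild type.

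The large-subunit genes lay slightly above the small-subunit genes in their log2 fold changes. The median log2 fold change was 0.21 over the 50 large-subunit genes, with 38 above 0, and 0.013 over the 32 small-subunit genes, with 17 above 0. Over all genes tested it was -0.0013, and 49.9% were above 0. Set against the wild type mean and library by library, the large-subunit median was 0.21 and 0.18 in Setd2-CD4 cre 22 and 24 and 0.036 and -0.036 in wild type 13 and 15. The small-subunit median was -0.053 and 0.095 in Setd2-CD4 cre and 0.056 and -0.056 in wild type. The large-subunit medians thus did not overlap between the groups, whereas the small-subunit medians did. The large minus small difference was 0.26 in library 22 and 0.085 in library 24, and -0.020 and 0.020 in wild type. No test was made of these medians, and a 2 against 2 design allows no exact p below 0.33. The size of the subunit difference rested on 1 library, since it was 0.084 without library 22 and 0.27 without library 24.

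The change was of the same order in abundant genes. Among the 30 large-subunit genes at 100 CPM or more, 26 had a log2 fold change above 0, with a median of 0.21 and a range of -0.18 to 0.74. Among the 21 small-subunit genes at that level, 13 were above 0, with a median of 0.050 and a range of -0.28 to 0.35. The following counts are over all tested genes of each subunit, at any level. Both Setd2-CD4 cre libraries were above both wild type libraries for 29 of 50 large-subunit and 12 of 32 small-subunit genes. The share over all genes was 31.1%. Both were below in 5 of 50 large-subunit and 3 of 32 small-subunit genes, against 32.7% of all genes.

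**Figure D1:**
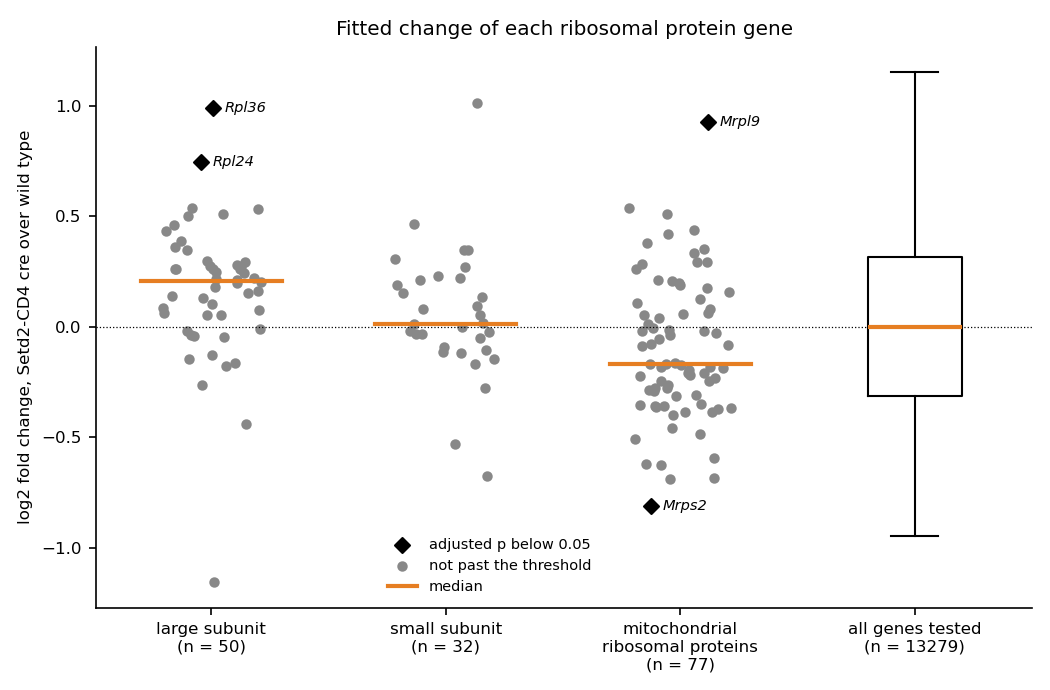
Fitted log2 fold change of each gene, Setd2-CD4 cre over wild type (vertical axis), for the large and small subunits, the mitochondrial ribosomal proteins and all genes tested (box: quartiles, whiskers: 5th and 95th percentiles). Orange lines are medians, and black diamonds mark genes past an adjusted p of 0.05; the large-subunit median is 0.21, the small-subunit median 0.013 and the mitochondrial median -0.17.

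Summed over their genes, the large-subunit rows held 2.40% and 2.49% of all counts in Setd2-CD4 cre 22 and 24 and 2.34% and 2.21% in wild type 13 and 15. Both Setd2-CD4 cre values were above both wild type values, with means of 2.44% ± 0.0658 and 2.27% ± 0.0954 (SD, n = 2 each). The small-subunit rows held 2.03% and 2.24% in Setd2-CD4 cre and 2.10% and 1.96% in wild type, and here the groups overlapped. The ratio of large to small summed counts was 1.18 in library 22 and 1.11 in library 24, and 1.11 and 1.12 in wild type. Library 22 alone stood above the rest, so the ratio of counts overlapped between the groups. Summed FPKM (counts per length and depth) gave a large-subunit share of 4.95% and 4.99% in Setd2-CD4 cre and 4.79% and 4.53% in wild type. The ratio of large to small summed FPKM was 1.10 and 1.07 in Setd2-CD4 cre and 1.04 and 1.05 in wild type, so in FPKM both Setd2-CD4 cre libraries were above both wild type libraries. The lengths behind FPKM exceeded the longest annotated transcript for 66 of 81 genes, so the weight of each gene in summed FPKM is uncertain.

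**Figure D2:**
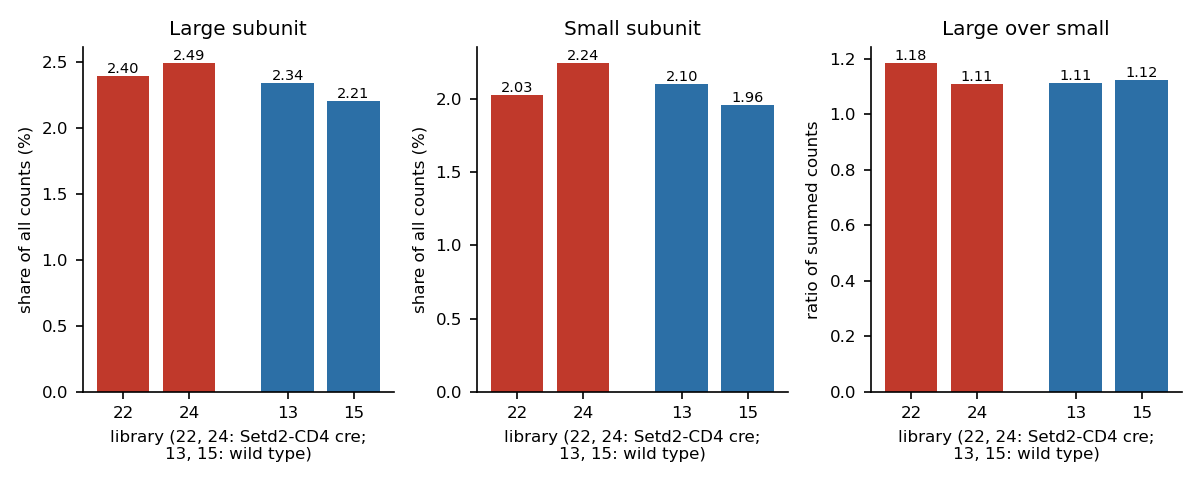
Share of all counts held by the large-subunit rows (left) and the small-subunit rows (middle), in percent, and the ratio of the summed counts (right), with 1 bar per library. Libraries 22 and 24 are Setd2-CD4 cre and libraries 13 and 15 wild type; the large-subunit share is higher in both Setd2-CD4 cre libraries, while the small-subunit share and the ratio of counts overlap.

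Rpl24 (ENSMUSG00000098274, chr16:55966275-55971435 on the plus strand of GRCm38.p6) encodes a large-subunit protein that helps to bridge the subunits. It was at 884 and 869.8 CPM in Setd2-CD4 cre and at 541 and 506 CPM in wild type. The groups were far apart relative to their spread (877 ± 10.2 and 523 ± 24.4 CPM, SD, n = 2 each), which gave a fitted log2 fold change of 0.74 with an SE of 0.11 (adjusted p = 0.0167). It was past the threshold in 14 of 16 alternative analyses; without wild type 13 or wild type 15, which leaves 1 library in that group, the adjusted p was 0.0794 and 0.147, with log2 fold changes of 0.79 and 0.69 in the same direction. Gm28037, a transcript that overlaps the Rpl24 locus and holds most of its coding sequence, was counted in a row of its own with 4.22 and 4.91 CPM in Setd2-CD4 cre and 3.86 and 2.75 CPM in wild type (adjusted p = 0.334).

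Rpl36 (ENSMUSG00000057863, chr17:56613395-56614243, plus strand) encodes a large-subunit protein and was a low row, with 500 counts over the 4 libraries. It was at 11.2 and 10.3 CPM in Setd2-CD4 cre and at 5.64 and 5.23 CPM in wild type. The Setd2-CD4 cre libraries were both higher, by 0.99 on the log2 scale (SE 0.20, adjusted p = 0.0348). As with Rpl24, the call was lost when either wild type library was left out, with adjusted p-values of 0.145 without library 13 and 0.225 without library 15. A processed pseudogene, Rpl36-ps3 on chromosome 12, carries 4 base differences over 315 coding bases and held 24.0% of the counts of the pair. Its own row was at 2.68 and 3.06 CPM in Setd2-CD4 cre and at 2.21 and 2.28 CPM in wild type (log2 fold change 0.36, adjusted p = 0.473). With the pseudogene's counts added, Rpl36 was still past the threshold (log2 fold change 0.83, SE 0.18, adjusted p = 0.0398). The stretch from coding base 168 to 227 shows how little separates the pair, with the differing bases in capitals, as annotated by GENCODE:
Rpl36: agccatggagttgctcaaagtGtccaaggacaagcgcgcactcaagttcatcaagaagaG
Rpl36-ps3: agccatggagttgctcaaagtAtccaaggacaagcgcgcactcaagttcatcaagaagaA

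A further group of genes lay just outside the threshold, and the following were chosen after their values were seen. Rpl41, which encodes a very short large-subunit peptide, was at 602 and 599 CPM in Setd2-CD4 cre and at 456 and 435 CPM in wild type (log2 fold change 0.43, SE 0.11, adjusted p = 0.0502). Rpl34, a large-subunit gene, was at 183 and 179 CPM in Setd2-CD4 cre and at 136 and 119.9 CPM in wild type (log2 fold change 0.50, adjusted p = 0.0542). Rps12, a small-subunit gene, was at 87.4 and 82.4 CPM in Setd2-CD4 cre and at 59.1 and 64.1 CPM in wild type (log2 fold change 0.46, adjusted p = 0.0664). In each of these 3 genes both Setd2-CD4 cre libraries were above both wild type libraries, as in 31.1% of all genes tested. Genes chosen for lying near the threshold would mostly be of this kind. Rpl41 was past the threshold in 8 of 16 alternative analyses, Rpl34 in 6 and Rps12 in 2.

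**Figure D3:**
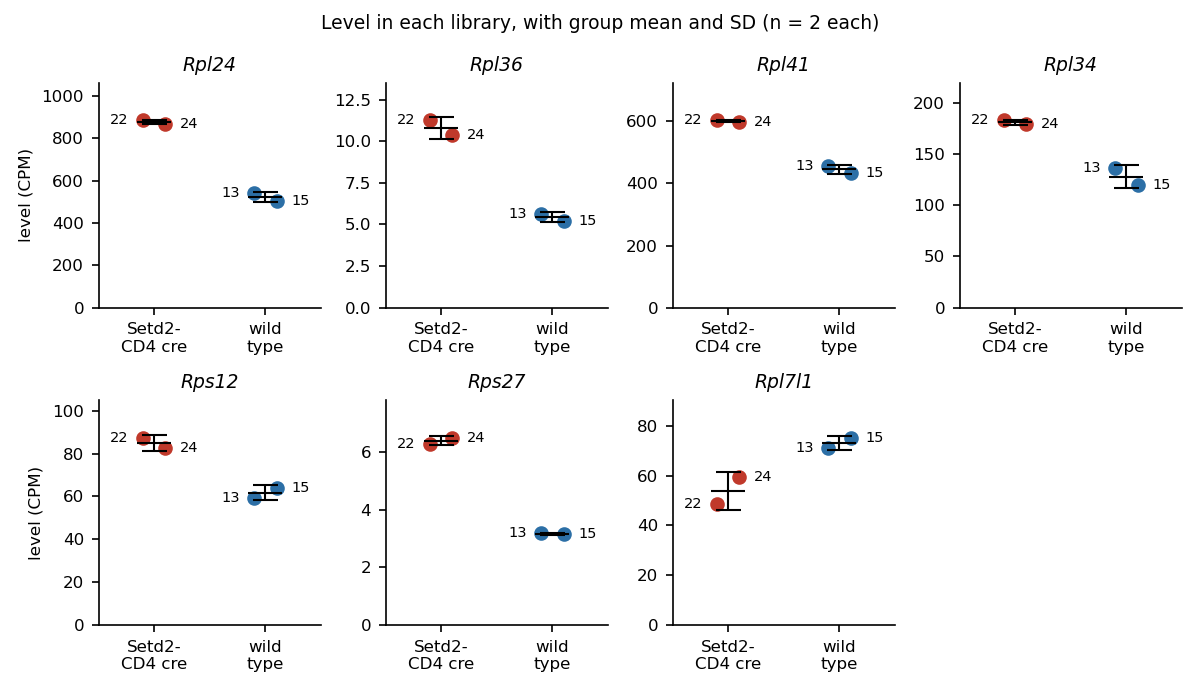
Level in each library (vertical axis, CPM) of 7 genes, with Setd2-CD4 cre libraries 22 and 24 in red on the left and wild type libraries 13 and 15 in blue on the right of each panel; bars are the mean and SD (n = 2 each). The groups do not overlap in any of the 7 panels, and Rpl7l1 is the panel in which Setd2-CD4 cre is lower. Over all genes tested, 31.1% were higher and 32.7% lower without overlap.

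Several rows shared their sequence, and so could share reads, with near-identical copies elsewhere in the genome. The coding sequences of the ribosomal protein genes were aligned with all annotated mouse transcripts. A row was taken as a copy at 95% identity over 80% of the coding bases. Its symbol also had to begin with Rp or be Gm and a number. This left out 3 rows of other genes that met both bounds: Wdr89 (matching Rplp2, 17016 counts), Flt3l (Rpl13a, 3315 counts) and BC004004 (Rpl21, 3152 counts). Also left out was 1 row at the same locus, Gm28037. In the table, 33 of the genes had such a copy, with 47 copy rows in all, of which 30 held at least 100 counts. For 12 genes the copies held more counts than the gene's own row. A further 518 near-identical genes, matching 76 of the ribosomal protein genes, are annotated but have no row in the table. Bowtie2 and RSEM are named in the submitters' processing notes, and RSEM divides reads that match several transcripts by estimation, so a row of such a gene is uncertain.

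The most uneven family was that of Rpl23a, a protein at the exit of the nascent chain tunnel. Its own row held 228 counts over the 4 libraries and the row of Rpl23a-ps3, a processed pseudogene on chromosome 14, held 55524, or 99.6% of their sum. The coding sequences differ at 1 of 468 aligned bases, shown in capitals in the stretch from coding base 86 to 145 (Rpl23a lies at chr11:78180932-78183584 on the minus strand):
Rpl23a: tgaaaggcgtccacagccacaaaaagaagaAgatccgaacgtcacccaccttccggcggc
Rpl23a-ps3: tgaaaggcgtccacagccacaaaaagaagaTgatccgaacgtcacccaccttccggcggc
The Rpl23a row was at 4.68 and 3.89 CPM in Setd2-CD4 cre and at 2.76 and 3.49 CPM in wild type. The Rpl23a-ps3 row was at 982 and 1009 CPM in Setd2-CD4 cre and at 837 and 764 CPM in wild type. Summed, the family stood at a log2 fold change of 0.32 with an SE of 0.11 (adjusted p = 0.0997), with both Setd2-CD4 cre libraries higher.

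Where a copy is identical over the whole coding sequence, the size of the change depended on the row. Rps27, a zinc finger protein of the small subunit, had the largest fitted log2 fold change of the small-subunit genes. Its row was at 6.29 and 6.51 CPM in Setd2-CD4 cre and at 3.19 and 3.15 CPM in wild type (log2 fold change 1.01, SE 0.25, adjusted p = 0.0503). The row of its identical copy Rps27rt, on chromosome 9, was at 546 and 619.8 CPM in Setd2-CD4 cre and at 584 and 507 CPM in wild type (log2 fold change 0.095, adjusted p = 0.638). With Rps27rt holding 99.2% of their counts, the summed family was at 0.10 on the log2 scale (SE 0.13, adjusted p = 0.608) and the groups overlapped. Rpl12, a protein at the base of the stalk, was likewise at 0.53 on the log2 scale (SE 0.16, adjusted p = 0.0792) in its own row of 3645 counts. With Gm10275, an identical copy on chromosome 10 with 87372 counts, summed in, it was at 0.10 (SE 0.098, adjusted p = 0.513).

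**Figure D4:**
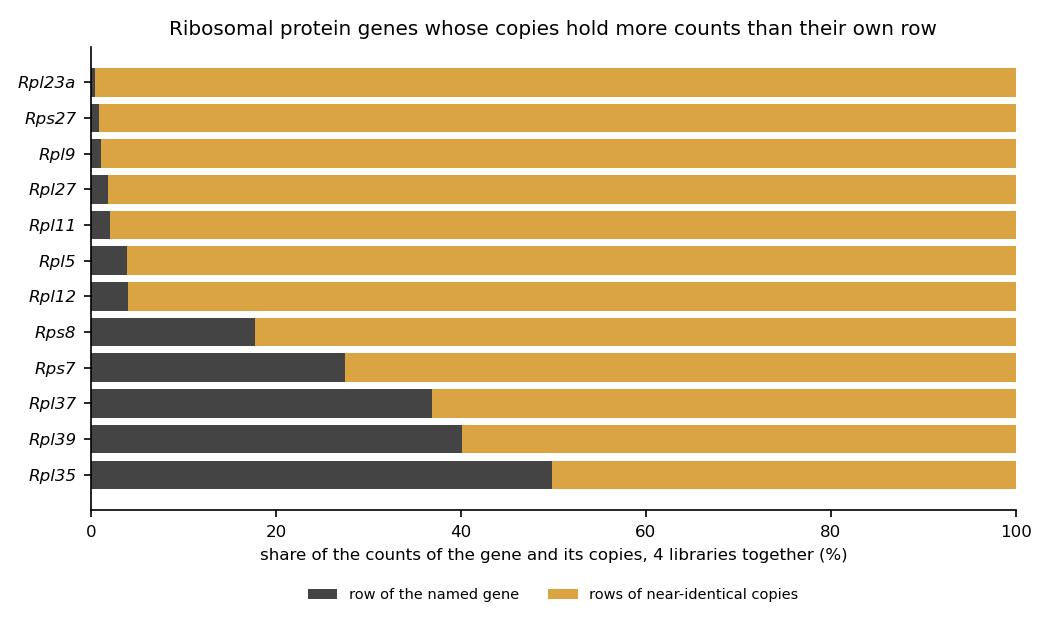
Share of the counts of each gene and its near-identical copies (horizontal axis, percent, 4 libraries together) held by the row of the named gene (dark) and by the rows of its copies (yellow), for the 12 genes whose copies hold more. Rpl23a is the most uneven, with 99.6% in the copy, and Rpl35 the least, with 50.1%.

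Rpl5 and Rpl11, which bind the 5S ribosomal RNA and can hold Mdm2, were also mostly counted in copies. The Rpl5 row was at 101 and 105 CPM in Setd2-CD4 cre and at 114 and 119.1 CPM in wild type. Its identical copy Gm15500, on chromosome 7, was at 2633 and 2605 CPM in Setd2-CD4 cre and at 2801 and 2685 CPM in wild type. Summed, both Setd2-CD4 cre libraries were below both wild type libraries, by a fitted log2 fold change of -0.070 with an SE of 0.094 (adjusted p = 0.64). The Rpl11 row was at 7.43 and 7.53 CPM in Setd2-CD4 cre and at 6.68 and 4.96 CPM in wild type. Its copies held 98.0% of the family, which summed to 363 and 390.1 CPM in Setd2-CD4 cre and to 286 and 282 CPM in wild type (log2 fold change 0.41, SE 0.11, adjusted p = 0.0623). The members of this pair therefore lay on either side of 0, without either passing the threshold.

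With all copies summed into their genes, 10.2% of 13244 genes were past the threshold (5.58% higher), and of the 82 ribosomal protein genes tested 2 were higher and 0 lower, again Rpl24 and Rpl36. Of 27 genes with at least 100 copy counts, 6 moved by more than 0.1 in log2 fold change, among them Rps27 and Rpl12, with lower values after summing, and Rpl27, at 0.30 after summing and at -0.019 in its own row. Several rows remained low without any copy in the table, such as Rps6, the S6 kinase substrate, at 8.77 and 8.23 CPM in Setd2-CD4 cre and at 8.89 and 8.39 CPM in wild type (adjusted p = 0.947). Near-identical genes annotated without a row number 11 for Rps6 and 10 for Rpsa, a high row, and how many reads they draw was not tested. Whether the low Rps6 row reflects a low messenger RNA was not tested.

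**Figure D5:**
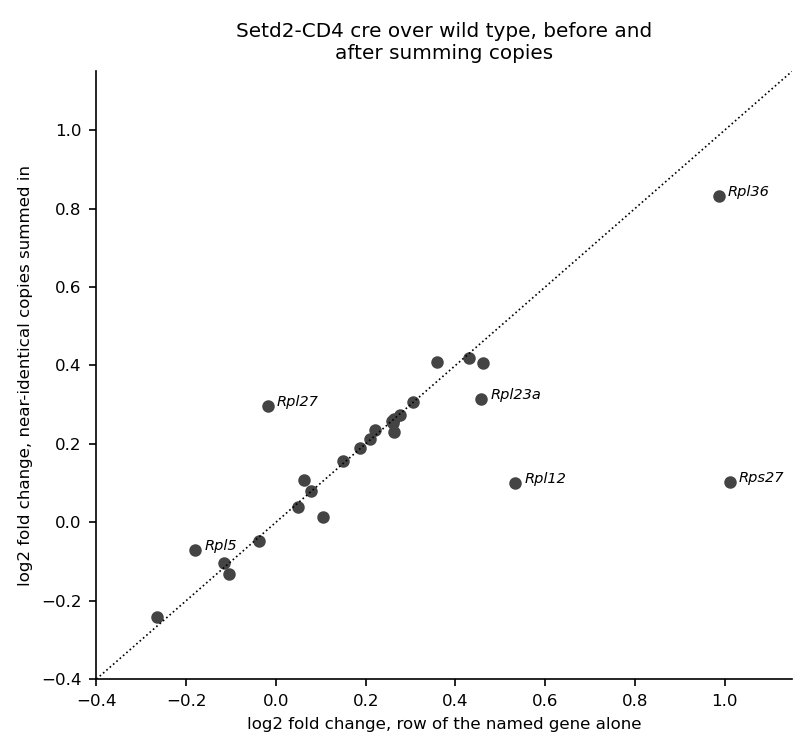
Log2 fold change, Setd2-CD4 cre over wild type, of 27 genes from the row of the named gene alone (horizontal axis) and with the counts of near-identical copies summed in (vertical axis); the dotted line marks equal values. Genes that moved by more than 0.1 are named; Rps27 is at 1.01 before and 0.10 after summing.

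None of the genes with the highest FPKM passed the threshold. For these genes FPKM served only to choose them. The length implied by count and FPKM was longer than the longest annotated transcript for 66 of 81 genes. Its median was 2559 bases, against 751 for the main coding transcript. An order of FPKM between genes is therefore not one per length of messenger RNA. Of the large subunit, the highest were Rpl4, Rplp1, Rpl8, Rpl13a and Rplp0. Rpl4, which lines the exit tunnel, was at 3595 and 3383 CPM in Setd2-CD4 cre and at 3428 and 3305 CPM in wild type (log2 fold change 0.052, adjusted p = 0.745), with overlapping groups. Rpl8, which lies near the peptidyl transferase centre, was at 1487 and 1634 CPM in Setd2-CD4 cre and at 1744 and 1663 CPM in wild type (log2 fold change -0.13, adjusted p = 0.442), lower without overlap. Rpl13a was at 1855 and 1972 CPM in Setd2-CD4 cre and at 1881 and 1621 CPM in wild type (log2 fold change 0.13, adjusted p = 0.479), and the groups overlapped.

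The 3 stalk proteins, which recruit the translation factors that hydrolyse GTP, were each higher in both Setd2-CD4 cre libraries, by similar amounts and without passing the threshold. This is not particular to the stalk. Both Setd2-CD4 cre libraries were higher in 29 of the 50 large-subunit genes tested, against 31.1% of all genes. The median log2 fold change over those 50 was 0.21. Rplp0, the base of the stalk, was at 3138 and 3190.1 CPM in Setd2-CD4 cre and at 2739 and 2731 CPM in wild type (log2 fold change 0.21, SE 0.094, adjusted p = 0.179). Rplp1 was at 1047 and 1037 CPM in Setd2-CD4 cre and at 907 and 836 CPM in wild type (log2 fold change 0.26, SE 0.10, adjusted p = 0.147). Rplp2 was at 474 and 435 CPM in Setd2-CD4 cre and at 404 and 365 CPM in wild type (log2 fold change 0.24, SE 0.12, adjusted p = 0.212).

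Of the small subunit, Rpsa, Rps15, Rps26 and Rps24 were among the highest in FPKM. Rpsa, also known as the laminin receptor precursor, was at 4341 and 4359.9 CPM in Setd2-CD4 cre and at 3811 and 3719 CPM in wild type (log2 fold change 0.21, SE 0.092, adjusted p = 0.177). The Setd2-CD4 cre libraries were both higher, without passing the threshold. Rps26, at the messenger RNA exit, was at 768 and 792 CPM in Setd2-CD4 cre and at 655 and 682 CPM in wild type (log2 fold change 0.22, adjusted p = 0.194). Rps15, near the decoding site, was at 1576 and 1568 CPM in Setd2-CD4 cre and at 1493 and 1337 CPM in wild type (log2 fold change 0.15, adjusted p = 0.365). Rps24 was at 1263 and 1526 CPM in Setd2-CD4 cre and at 1479 and 1161 CPM in wild type (log2 fold change 0.079, adjusted p = 0.758), so that its replicates differed by more than its groups.

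Paralog pairs gave no change past the threshold in any member. Rpl7l1, a paralog of Rpl7 that takes part in large-subunit assembly, was at 48.5 and 59.4 CPM in Setd2-CD4 cre and at 71.0 and 75.3 CPM in wild type (log2 fold change -0.44, SE 0.15, adjusted p = 0.0987). Rpl7 was at 1788 and 1641 CPM in Setd2-CD4 cre and at 1691 and 1613 CPM in wild type (log2 fold change 0.053, adjusted p = 0.756). Without library 24, which leaves 1 Setd2-CD4 cre library, Rpl7l1 was past the threshold and lower (log2 fold change -0.60, adjusted p = 0.0164). Rpl22, on which the development of αβ T cells depends in mice, was at 237 and 207 CPM in Setd2-CD4 cre and at 160.4 and 208 CPM in wild type (log2 fold change 0.27, adjusted p = 0.291). Its paralog Rpl22l1 was at 38.1 and 36.4 CPM in Setd2-CD4 cre and at 42.2 and 34.3 CPM in wild type (log2 fold change -0.039, adjusted p = 0.883). The groups overlapped for both genes.

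For Rpl36a the log2 fold change was 0.14 (adjusted p = 0.588) and for its intronless paralog Rpl36al -0.049 (adjusted p = 0.829). Rpl10, a late-joining large-subunit protein, was at 102 and 101 CPM in Setd2-CD4 cre and at 85.1 and 84.9 CPM in wild type (log2 fold change 0.26, adjusted p = 0.199), while its testis paralog Rpl10l was not detected. Rpl3 was at 869 and 818 CPM in Setd2-CD4 cre and at 745 and 720.1 CPM in wild type (log2 fold change 0.20, adjusted p = 0.231), and its striated muscle paralog Rpl3l was at or below the floor of 3 counts per library throughout. Rps4x, encoded on the X chromosome, was at 2141 and 2221 CPM in Setd2-CD4 cre and at 2006 and 1825 CPM in wild type (log2 fold change 0.19, adjusted p = 0.26). The lowest fitted values of all belonged to sparse rows whose groups overlapped: Rpl39l, with 12 and 8 counts in Setd2-CD4 cre and 8 and 37 in wild type, Rps29, with 7 and 13 counts in Setd2-CD4 cre and 23 and 10 in wild type, and Rps4l, with 11 and 31 counts in Setd2-CD4 cre and 22 and 39 in wild type. Rpl39, the abundant paralog of Rpl39l, was at 147 and 146 CPM in Setd2-CD4 cre and at 150.3 and 131 CPM in wild type (log2 fold change 0.062, adjusted p = 0.772). Rps27l, a p53-responsive paralog of Rps27, was at 67.8 and 81.9 CPM in Setd2-CD4 cre and at 84.3 and 67.6 CPM in wild type (adjusted p = 0.944).

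Of the ribosomal proteins made as fusions, and of components whose symbols fall outside the rule, those given here did not pass the threshold. Rps27a, a small-subunit protein made as a fusion with ubiquitin, was at 60.3 and 64.4 CPM in Setd2-CD4 cre and at 72.4 and 65.6 CPM in wild type (log2 fold change -0.15, adjusted p = 0.476). Fau, fused to the small-subunit protein eS30, was at 389 and 419 CPM in Setd2-CD4 cre and at 368 and 295 CPM in wild type (log2 fold change 0.29, adjusted p = 0.215). Rps3a1 and the scaffold protein Rack1, listed under its older symbol Gnb2l1, were at -0.10 and 0.030 in log2 fold change, with an adjusted p of 0.572 and 0.872.

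Other genes of ribosome supply were counted as lists beside these, to be read against the 10.1% of all genes past the threshold; 2 of the lists held 0 calls and none more than 2. Of 20 TOP messenger RNAs other than ribosomal proteins, such as the elongation factors, 0 passed the threshold in either direction, and the median log2 fold change was 0.13, with 15 above 0. Of 17 genes of mTORC1, the S6 kinases and LARP1, 0 passed in either direction, with a median of -0.0070. Of 14 chaperones and importers of ribosomal proteins, Aamp alone was past the threshold, at 127 and 142 CPM in Setd2-CD4 cre and at 91.7 and 83.2 CPM in wild type (log2 fold change 0.62, adjusted p = 0.039). Of 12 ribosome rescue genes, Hbs1l, a partner of the rescue factor Pelota, rose (107 and 93.4 CPM in Setd2-CD4 cre, 67.8 and 61.5 CPM in wild type, log2 fold change 0.63, adjusted p = 0.0412). Of 23 initiation factors, Eif4a2, an RNA helicase, rose by 0.52 on the log2 scale (adjusted p = 0.034) and Eif4g1, the scaffold of the cap-binding complex, fell by 0.55 (adjusted p = 0.0399). Aamp, Hbs1l, Eif4a2 and Eif4g1 all lost their calls on log2 FPKM and without either wild type library.

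The mitochondrial ribosome, built from a separate set of nuclear genes, had a median below 0. Of 77 genes tested, 1 was higher and 1 lower past the threshold, against 5.53% and 4.59% of all genes; the median log2 fold change was -0.17 and 51 were below 0. Mrpl9 was at 153 and 122 CPM in Setd2-CD4 cre and at 73.5 and 71.2 CPM in wild type (log2 fold change 0.93, adjusted p = 0.0221). Mrps2 was at 17.6 and 22.3 CPM in Setd2-CD4 cre and at 36.4 and 33.7 CPM in wild type (log2 fold change -0.81, adjusted p = 0.0377). Both calls ended when either wild type library was left out, that of Mrps2 also on log2 FPKM (adjusted p = 0.0564 and 0.0537), and the difference between the cytosolic and mitochondrial medians was not tested.

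The promoters of the ribosomal protein genes shared a feature that the symbol rule did not use. RefSeq start sites on GRCm38.p6 were matched for 63 of the genes, giving 75 windows of 300 bases from 250 bases before to 50 bases after the start. A pyrimidine tract, searched on the coding strand within 50 bases of the start as a C followed by C or T to a length of at least 8, was present in 78.67% of the windows. It was found in 80.85% of large-subunit and 75% of small-subunit windows, against 32% of windows of mitochondrial ribosomal protein genes and 28.77% of 32851 windows of all genes. CCGGAAG, searched on both strands of the window, was in 34.67% of cytosolic and 34.67% of mitochondrial ribosomal protein windows, against 8.858% of all. AAGATGGC was in 10.67% of cytosolic and 16% of mitochondrial ribosomal protein windows, against 2.749% of all, and GGGCGG in 60% and 52%, against 35.66%, on either strand. Stretches from 4 genes described above or near the threshold show the tract (capitals) near the annotated start of transcription, and are given to show how it varies in length from 9 to 20 bases:
Rps27: ttcgCTCCTTTCCggcggtgacgacctccc
Rps12: ccggCCTTTTCCCCTgccgccgccgacttg
Rpl7a: aattCCCTCTTCTTTCTTTCTCCagcagcc
Rpl34: cccgCCCCTTCCTTTTCCTCTTCCggggac
They lie at chr3:90213625-90213654 (minus strand), chr10:23787176-23787205 (minus), chr2:26910791-26910820 (plus) and chr3:130730329-130730358 (minus). No such tract was found for Rpl24 or Rpl36, which can also mean that no start site was matched for them. These matches describe letters and are not binding sites.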

How the data were processed

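RNA of 4 libraries was sequenced (Illumina HiSeq, per the labels' protocols), and Bowtie2 and RSEM with GRCm38.p6 (mm10) are named in the submitters' processing notes; their versions, strand use and read filters are not stated there. The authors deposited whole-number counts and FPKM per gene. The ribosomal protein genes and lists were chosen with earlier results of these data known. Named genes follow a rule: those past the threshold, the 5 highest in FPKM per subunit, the 3 largest folds each way, paralog pairs and fixed roles.

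Counts were tested with edgeR 4.0.16 in R 4.3.3 (filterByExpr, minimum count 10, minimum total 15, TMM scaling, quasi-likelihood test, two-sided, Benjamini-Hochberg over all genes, threshold 0.05); every adjusted p is from it unless named. The SE is the log2 fold change over the root of F and approximate. Replicates differed beyond counting noise (chi-square per degree of freedom 28.8 in Setd2-CD4 cre and 9.42 in wild type). Alternatives were other scalings and filters, DESeq2 1.42.0, limma-voom and limma 3.58.1 on log2(FPKM + 1) or (FPKM + 0.1), leaving out each library, and 2 chosen after seeing the data (copies summed, found with BLAST 2.17.0 on GENCODE transcripts; genes of 100 CPM or more). On simulated counts for 13079 genes of this comparison, 2.99% of genes changed 1.5-fold, 53.8% of those changed 2-fold and 90.9% of those changed 4-fold were recovered, and 11.8% of calls were false. Floors of 3 counts per library (0.187 to 0.205 CPM) cover counting error only. No protein sequences were used here, and the results of some genes are not reported here.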

Additional observations from a re-analysis of the deposited data

How the results depend on the processing

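Depth was similar in all libraries, and 2 libraries per group limit the precision. Most ribosomal protein genes stayed under a change of 1.5-fold. In simulation, changes of 1.5-fold were rarely recovered. Only 67 genes were changed 1.5-fold there, 65 2-fold and 66 4-fold, drawn at random over all levels. In the data 1344 genes were called, which makes the adjusted threshold less strict than in the simulation. The simulation therefore does not give the recovery for the ribosomal protein genes. No paired analysis was possible because the groups share no library number. Members past the threshold and higher numbered 4 with RLE scaling or TMM without the members (adding Rpl41 and Rps27), 5 with the 5 CPM filter, the robust fit or DESeq2, 6 with no filter, and 0 to 11 when a library was left out (0 without wild type 13 or 15, 8 without Setd2-CD4 cre 22, 11 without 24); lower ones numbered 0 to 1 when a library was left out, the 1 being Rpl7l1 without library 24. Over all genes, 1261 higher and 1088 lower were called with no filter, 445 and 457 higher on log2 FPKM with the pseudocounts 1 and 0.1, and 120 to 2122 higher and 70 to 2002 lower with a library left out. The large-subunit median was 0.15 with library totals and with FPKM (both pseudocounts), and ranged from 0.15 to 0.23 with a library left out. The small-subunit median, near 0, changed sign under library totals (-0.041), upper-quartile scaling (-0.014), FPKM (-0.044 with either pseudocount) and without wild type 15 (-0.037) or Setd2-CD4 cre 24 (-0.066). The difference between the medians ranged from 0.084 (without Setd2-CD4 cre 22) to 0.27 with a library left out. The large-subunit share differed by 0.306 percentage points in FPKM, against 0.17 in counts, which ranged from 0.10 to 0.24 with a library left out; the small-subunit difference was -0.0052 without Setd2-CD4 cre 24, and the difference in ratio -0.0095 without 22. Of 763 values of 48 named genes under alternatives, 690 kept direction and side of the threshold, 47 lost a call and 8 gained one; 18 values of 10 genes changed sign, 0 of them past the threshold in either analysis. Rpl4 was at -0.0067 with library totals and -0.0068 with FPKM (both pseudocounts), and Rpl7 at -0.0054 and -0.0056. With a library left out, Rps24 ranged from -0.092 to 0.26, Rpl39l from -1.91 to 0.41, Rps4l from -1.42 to 0.016, Rpl22l1 from -0.19 to 0.11, Rpl36al from -0.14 to 0.047, Rpl39 from -0.040 to 0.16, Rps27l from -0.18 to 0.14 and Rps6 from -0.071 to 0.017.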
